A study of Rattus norvegicus with 47 samples.

Results

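The cortex on the side opposite a brain injury was compared between 24 h and 4 h after the injury in rat, in 16 of the 47 arrays of the series. The members were chosen by their labels alone, as cortex of the contralateral side: 8 arrays at 4 h carry the sample numbers 9 to 16 and 8 arrays at 24 h carry the numbers 41 to 48. The other arrays of the series hold ipsilateral cortex, the injured side, at 4 h (n = 7) and 24 h (n = 8) and hippocampus of both sides at 4 h (n = 7 ipsilateral and n = 9 contralateral). Each array was hybridised with total RNA from Rattus norvegicus, extracted with Trizol, and holds 8799 probe sets, of which 59 are controls. The labels used here give no strain, sex or age, no kind of injury and no sham or uninjured group, so every array of both groups is labelled as post injury and the level before injury is not known. Whether the arrays of a group came from separate animals is not stated, so the p-values below measure the spread between arrays alone, which may be technical. For genes this spread within groups was estimated over all 47 arrays, ipsilateral cortex and hippocampus included.

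Cortex contralateral to a focal injury is spared the direct blow, but it is wired to the injured side through the corpus callosum and shares with it the systemic stress response. In the first hours after such an insult cortical neurons typically switch on immediate early genes, and within a day glia, stress and metabolic genes can follow. Cortical tissue RNA is a mixture of neurons, astrocytes, oligodendrocytes, microglia and vessels, so in these bulk samples fewer cells of a type and less RNA per cell cannot be told apart.

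The time groups differed in their array controls before any gene was examined. Hybridisation spike-ins, bacterial and phage transcripts (BioB, BioC, BioD and Cre) added in a fixed amount to the labelled RNA, had a mean log2 signal between 12.81 and 13.45 (median 13.27) on the 8 arrays at 4 h and between 11.96 and 12.58 (median 12.25) on the 8 arrays at 24 h. The ranges did not overlap, and the level fell by 0.978 on the log2 scale, a 1.97-fold difference (13.24 ± 0.21 against 12.26 ± 0.23, SD, n = 8 each; exact two-sided permutation p = 0.000155, the smallest this design can give; Benjamini-Hochberg adjusted p = 0.00108 over 14 tests). All 9 spike-in probe sets were lower at 24 h, from -0.30 for the 5′ probe set of BioB to -1.49 for its 3′ probe set. In ipsilateral cortex the difference was -0.999, and the hippocampus arrays lay between 11.76 and 12.34 at 4 h, lower than every cortex array of that time. The Gapdh control, read near both ends of its transcript, had a 3′ minus 5′ log2 difference of 0.183 to 0.428 (median 0.259) at 4 h and 0.0515 to 0.196 (median 0.0967) at 24 h, a fall of 0.168 (exact permutation p = 0.000466, adjusted p = 0.00217) with ranges that overlapped only between 0.183 and 0.196. The same measure of the beta-actin control differed by -0.0553 with overlapping ranges and did not pass (exact permutation p = 0.344, adjusted p = 0.438). In ipsilateral cortex both fell, Gapdh by 0.133 and beta-actin by 0.183 (exact permutation, adjusted p = 0.0187 each). The poly-A spike-in probe sets lay at a mean log2 signal of 5.738 at 4 h and 5.674 at 24 h, under the floor of 7.54 used for genes, so they give no reading of the labelling. Because the spike-in ranges of the times do not overlap in cortex, hours after injury and the level of these controls cannot be told apart; counts from fits with the spike-in level or the Gapdh difference as a covariate are given beside the main gene lists.

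**Figure D1:**
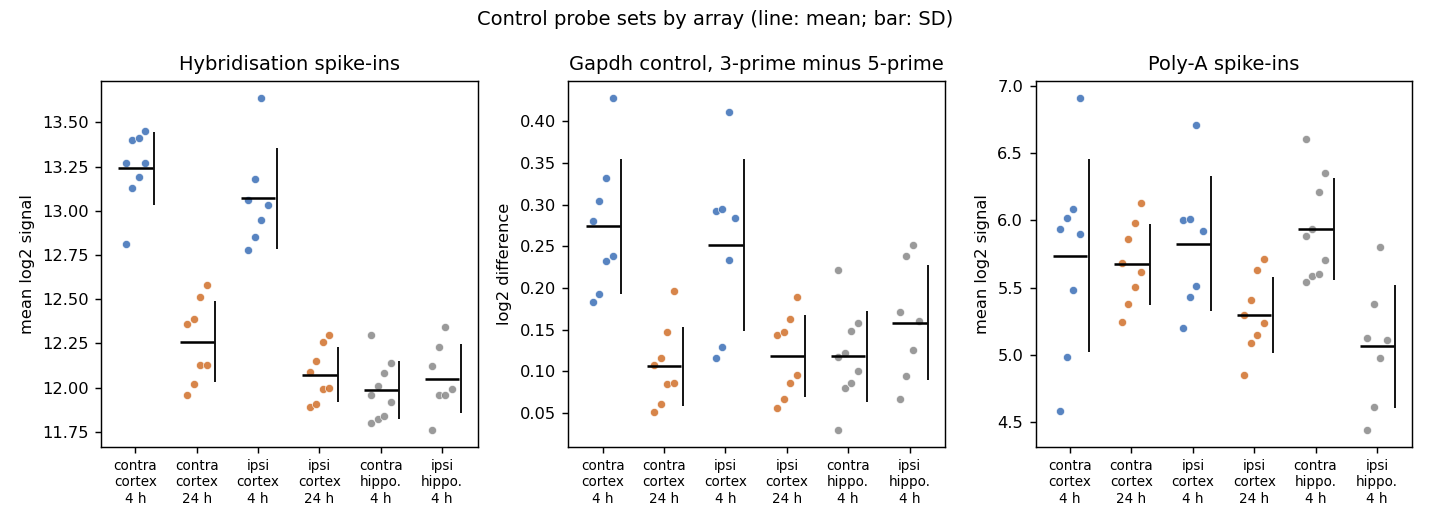
Control probe sets on each array by group: mean log2 signal of the hybridisation spike-ins (left), the 3-prime minus 5-prime log2 difference of the Gapdh control (middle) and the mean log2 signal of the poly-A spike-ins (right), which lie under the floor of 7.54. Points are arrays, lines group means and bars 1 SD; the contralateral cortex arrays at 4 h sit between 12.81 and 13.45 on the left panel, above all 8 arrays at 24 h (11.96 to 12.58) and above both hippocampus groups.

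Genes that rose from 4 h to 24 h in contralateral cortex included 10 of 22 genes of the GABA system, 9 of 40 of ion channels and the glial channel genes Aqp4 and Kcnj10. Genes that fell included 23 of 39 on a list of ribosomal proteins, 13 of 30 of the respiratory chain and ATP synthase, and the kinase inhibitor Camk2n1. Most shifts were small. Of 7503 probe sets bright enough to test, 1612 (21.5%) passed an adjusted p of 0.05 in limma, a linear model over all 47 arrays, with 993 higher at 24 h (13.2%) and 619 lower (8.25%). The median difference of the calls was 0.54 for those higher and -0.39 for those lower on the log2 scale, and only 51 rose and 20 fell by 2-fold or more. For 274 probe sets (3.65%) the lowest array of one time lay above the highest of the other, 166 of them higher and 108 lower at 24 h. Counted by gene, with the brightest probe set standing for each of 4242 genes, 544 rose (12.8%) and 360 fell (8.49%), with a median difference of 0.038 over all genes.

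The split between rises and falls rested on how the arrays were scaled. As deposited, 61.6% of the calls were higher at 24 h. After quantile normalization, which gives every array the same distribution, 51.1% of 1353 calls were higher, and after scaling each array to its median 34.6% of 1451. The split also ran with brightness: in the third quartile of probe sets by mean signal 398 rose and 106 fell, while in the brightest quartile 342 rose and 402 fell. The number of calls itself fell to 730 with the spike-in level as a covariate (593 of them also called without it), to 601 with the Gapdh 3′ minus 5′ difference as a covariate (555 shared) and to 157 with the spike-in covariate over the cortex arrays alone (134 shared). A fit of the contralateral cortex arrays alone, without a covariate, gave 1375 calls (1290 shared).

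The largest rise was that of Gpam, which encodes the mitochondrial acyltransferase that starts glycerolipid synthesis. Its log2 signal ran from 7.54, the floor below which values were not ordered, through a median of 9.16 to 10.31 at 4 h, and from 10.68 through 11.26 to 11.48 at 24 h. The 4 h arrays were widely scattered, with 6 of 8 above the floor, but all lay below the 24 h range, a difference of 2.20 ± 0.321 (SE; 4.61-fold, limma adjusted p = 1.69e-06), and 3 of its 5 probe sets rose. Dlg2, the postsynaptic scaffold PSD-93, went from 8.63, 8.89 and 9.34 (lowest, median and highest array) at 4 h to 9.83, 10.63 and 11.07 at 24 h. The gap between its ranges exceeded the SD of either group, with a rise of 1.63 ± 0.207 (3.10-fold, adjusted p = 1.45e-07), and both of its probe sets rose. Itpr1, the inositol trisphosphate receptor that releases calcium from the endoplasmic reticulum, went from 7.54, 8.34 and 8.78 to 9.38, 9.80 and 10.39, again without overlap (1.57 ± 0.214, adjusted p = 4.51e-07), with 3 of 5 probe sets higher. Eif4ebp1, a repressor of cap-dependent translation, rose by 1.69 ± 0.312 (adjusted p = 7.89e-05) on 1 of its 3 probe sets, from a median of 10.24 to 11.73. Maea, a subunit of a ubiquitin ligase, rose by 1.42 ± 0.253 with slight overlap of the ranges, and Grk4, a kinase of G protein-coupled receptors, by 1.37 ± 0.33 from near the floor. With the spike-in covariate Gpam, Dlg2, Itpr1 and Eif4ebp1 stayed past the threshold (adjusted p = 0.00826, 4.3e-05, 0.0079 and 0.0333), and Maea and Grk4 did not (adjusted p = 0.12 and 0.3). With the Gapdh covariate all but Grk4 (adjusted p = 0.144) of these 6 stayed past it.

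**Figure D2:**
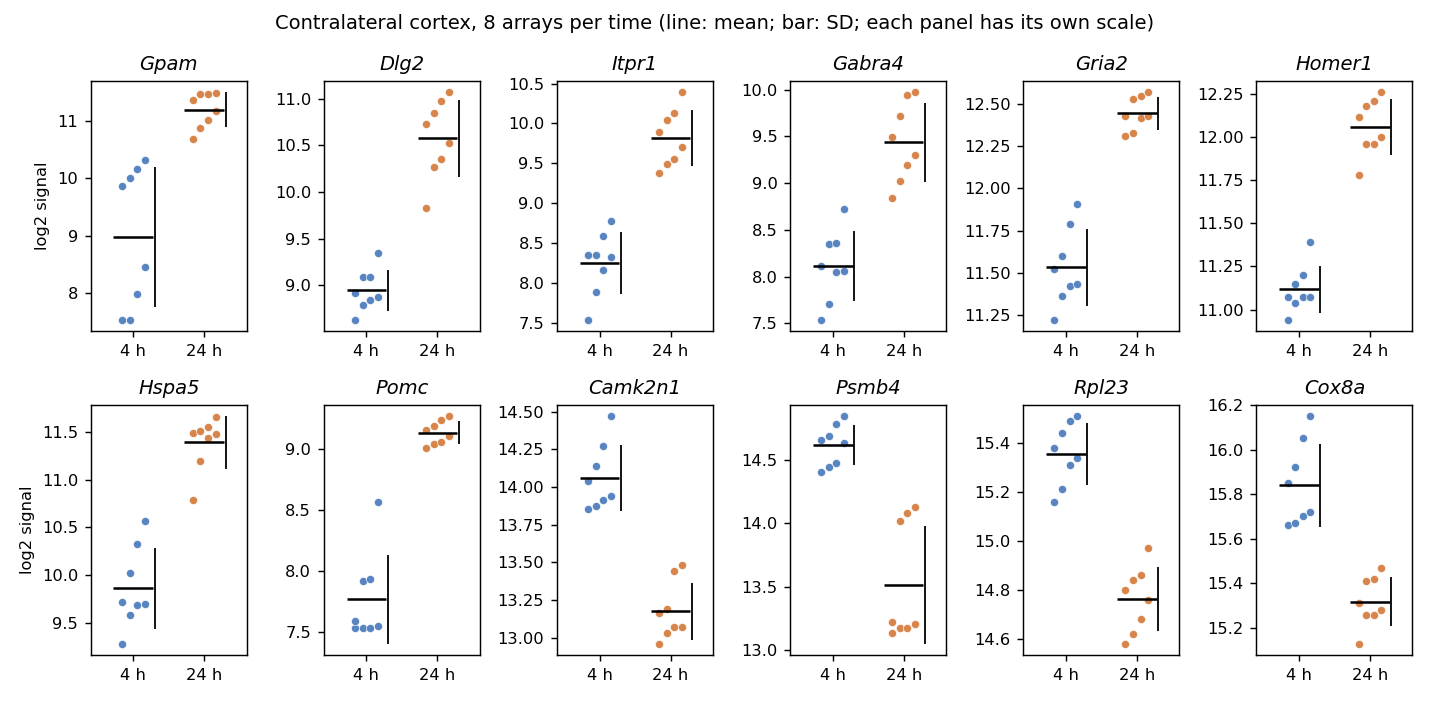
Log2 signal of 12 genes on the 8 arrays at 4 h and the 8 arrays at 24 h of contralateral cortex, 1 probe set per gene; points are arrays, lines means, bars 1 SD, and each panel has its own scale. The first 8 panels are genes that rose and the last 4 genes that fell. All 12 were picked from probe sets without overlap between the times, which were 274 of the 7503 tested (3.65%). The panels of Gria2, Hspa5, Gabra4 and Cox8a show a dimmer probe set, and a brighter one of each gene differed less. Psmb4 splits at 24 h into 5 arrays near 13.2 and 3 near 14.1.

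Genes of inhibitory transmission gave rises and no falls on the deposited scale. GABA, made from glutamate by glutamate decarboxylase, opens chloride channels built from GABA-A receptor subunits and is cleared by transporters and GABA transaminase. Of 22 genes measured on a list of this system, which also holds interneuron calcium-binding proteins, 10 rose and none fell, against 12.8% of all genes rising, with a median difference of 0.29 (0.038 over all genes), and 12 did not pass. The median signal of the 22 was 11.4, in the third quartile of probe sets (10 to 11.6), where 398 of 1875 rose. After median scaling 5 rose and 3 fell, after quantile normalization 7 rose and none fell, and with the spike-in covariate 6 rose and 1 fell. With the Gapdh covariate 5 rose and none fell, and with the spike-in covariate over cortex arrays alone 3 rose and none fell. The GABA-A subunit gene Gabra4 lay at 7.54, 8.09 and 8.72 at 4 h and at 8.84, 9.39 and 9.97 at 24 h. The ranges did not overlap, with a rise of 1.32 ± 0.228 (2.5-fold, adjusted p = 2.7e-05), and its brighter probe set rose by 0.60. The subunit genes Gabra2 (0.68), Gabra3 (0.57), Gabra5 (0.61) and Gabrg1 (0.72) rose as well, as did Gphn, the scaffold that anchors these receptors, by 0.34. Gad2, the decarboxylase isoform of nerve terminals, went from 10.21, 10.49 and 10.87 to 10.75, 11.36 and 11.54 (0.78 ± 0.146, adjusted p = 8.32e-05), while Gad1, the other isoform, differed by 0.13 and did not pass. Abat, the transaminase, rose by 0.80 ± 0.165 on its brighter probe set and differed by 0.18 on the other. Among interneuron markers Slc32a1, the vesicular GABA transporter, differed by -0.12 and Pvalb by -0.23, neither past the threshold, and Calb1 rose by 0.49.

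Glutamate receptor genes were mixed. Of 26 genes of ionotropic and metabotropic receptors, their scaffolds and transporters, 4 rose (15.4%, against 12.8% of all genes) and 3 fell, with a median of 0.063; with the Gapdh covariate 2 rose and 1 fell, and with the spike-in covariate 3 and 3. The AMPA receptor gene Gria2, whose subunit makes the channel impermeable to calcium, had a bright probe set that differed by 0.08 and a dimmer one that went from 11.22, 11.47 and 11.91 to 12.31, 12.43 and 12.57. That probe set separated the times completely (0.92 ± 0.114, adjusted p = 1.11e-07). Gria3 (0.62) and Gria1 (0.48) also rose, and Gria4 rose by 0.82 ± 0.213 on 1 of 3 probe sets. Homer1, a scaffold of metabotropic glutamate receptors with an activity-induced short form, rose on 4 of its 6 probe sets. Its largest rise took it from 10.94, 11.07 and 11.39 to 11.78, 12.06 and 12.26 without overlap (0.94 ± 0.131, adjusted p = 7.54e-07), and the files do not say which form each probe set reads. The kainate receptor genes Grik4 (-0.60) and Grik5 (-0.42) fell, and Slc1a1, the neuronal glutamate transporter, fell by 0.26 on one probe set and rose by 0.54 on another.

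Among 40 genes of ion channels, 9 rose (22.5%, against 12.8% of all genes) and 3 fell, with a median of 0.16. Their median signal was 10.93, in the third quartile of probe sets (10 to 11.6), where 398 of 1875 rose and 106 fell. After quantile normalization 8 rose and 4 fell, with the spike-in covariate 5 and 2, with the Gapdh covariate 4 and 1, and with the spike-in covariate over cortex arrays alone none rose and 1 fell. The sodium channel gene Scn1a (0.92) and the potassium channel genes Kcnc2 (0.94), Kcna2 (0.75) and Kcna6 (0.71) were among those that rose. Kcnc2, which serves fast spiking, lay at 10.54, 10.96 and 11.43 at 4 h and at 11.61, 11.94 and 12.11 at 24 h, apart at every array (0.94 ± 0.159, adjusted p = 1.97e-05), on 3 of 4 probe sets. Cacna2d1, an auxiliary calcium channel subunit, fell by 0.63.

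Neuropeptide genes split by peptide. Of 27 genes of peptides, their processing and receptors, 10 rose and 4 fell (37% and 14.8%, against 12.8% and 8.49% of all genes), with a median of 0.23, but after median scaling 4 rose and 6 fell. The median signal of the 27 was 11.05, in the third quartile of probe sets (10 to 11.6), where 398 of 1875 rose and 106 fell. Pomc, the precursor of corticotropin and beta-endorphin, lay at 7.54, 7.57 and 8.56 at 4 h, with 5 of 8 arrays above the floor, and at 9.01, 9.13 and 9.27 at 24 h. The ranges did not overlap, and the rise of 1.36 ± 0.211 (2.57-fold, adjusted p = 4.74e-06) started from a group partly at the floor; with the spike-in covariate it was 0.95 (adjusted p = 0.0949). Tac1, the substance P precursor, rose by 0.69 ± 0.153 and Cckbr, the cholecystokinin receptor of cortex, by 0.60 ± 0.155, the latter from a 4 h range of 10.64 to 11.45 to a 24 h range of 11.54 to 11.93. Crh (0.53), Adcyap1 (0.53), Vip (0.38) and Pdyn (0.34) rose too. The abundant peptides of cortical interneurons went the other way: Sst fell by 0.32 on one probe set and by 0.35 ± 0.0742 on the other (adjusted p = 0.00046), Cck by 0.31 and Npy by 0.30. With the spike-in covariate 2 genes of the list rose and 3 fell, and with the Gapdh covariate 1 rose and none fell.

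Synaptic and structural neuronal genes fell more often than they rose when counted by the brightest probe set. Of 39 measured, 4 rose and 9 fell (10.3% and 23.1%, against 12.8% and 8.49% of all genes), or 5 and 6 after quantile normalization. By at least 1 probe set 9 rose and 10 fell, against 702 and 441 of all 4242 genes. Of the 39, 22 belong to the brightest 10% of genes, in which 10.7% rose and 32.6% fell. With the spike-in covariate 1 rose and 7 fell, and with the Gapdh covariate 1 and 5. The clearest fall was that of Camk2n1, an inhibitor of calcium/calmodulin-dependent kinase II. It lay at 13.85, 13.99 and 14.47 at 4 h and at 12.96, 13.12 and 13.48 at 24 h. All 8 arrays at 24 h were below all 8 at 4 h, the fall was 0.88 ± 0.095 (1.85-fold, adjusted p = 4.18e-09), and the other probe set fell by 0.77. It stayed past the threshold with the spike-in covariate at -1.15 (adjusted p = 1.93e-05). Sv2a, a synaptic vesicle glycoprotein, fell by 0.60 ± 0.0915 with no overlap, Nrgn, a postsynaptic calmodulin buffer, by 0.43 and Camk2b by 0.37. Syt1 (0.62) and Cnr1, the cannabinoid receptor (0.69), rose. The neurofilament gene Nefl did not differ by more than the spread, at 15.01 ± 0.133 and 15.01 ± 0.105 (SD, n = 8 each; difference with an SE of 0.106, adjusted p = 0.986). Probe sets of one gene could disagree here: Snap25 differed by 0.28 on its brightest probe set (adjusted p = 0.0942) and rose on 2 of 4, by 0.85 ± 0.179 on one of them, and Map2 rose on 2 of 5, by 0.97 ± 0.188 on one of them, and differed by 0.07 on the brightest.

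Cytosolic ribosomal protein genes had the largest share of falls among the 31 lists measured. These genes encode the proteins of the translating ribosome and are among the most abundant messages of any cell. Of 39 genes, 2 of which are the elongation factors Eef1a1 and Eef2, 23 fell and 1 rose, against 8.49% of all genes falling, with a median of -0.28. Of the 39, 31 lie in the brightest 10% of genes, where 32.6% fell. Under median scaling 24 fell, under quantile normalization 14 fell and 1 rose, with the spike-in covariate 16 fell and none rose, and with the Gapdh covariate 15 fell and 1 rose, but over the cortex arrays alone with the spike-in covariate 2 fell. Rpl23 lay at 15.16, 15.36 and 15.51 at 4 h and at 14.58, 14.78 and 14.97 at 24 h. No array of one time reached the other, with a fall of 0.59 ± 0.0898 (1.51-fold, adjusted p = 3.18e-06). Rpl35 fell by 0.55 ± 0.0742 on both of its probe sets, from a median of 14.73 to 14.12, and Rpsa by 0.62 ± 0.0856 on one and 0.43 on the other, both without overlap on the probe set named first. The other 15 genes did not pass, and 6 of the 39 had a positive difference: Rpl21, which rose by 0.26, and Rpl30 (0.44), Eef1a1 (0.20), Rps24 (0.14), Rpl4 (0.12) and Rps6 (0.04), which did not pass. Rps15 and Rpl13a each had one probe set that fell (-0.38 and -0.27) and another that rose (0.42 and 0.34).

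The subunits of the respiratory chain and ATP synthase carry out oxidative phosphorylation in mitochondria. Of 30 genes on this list, mitochondrial carriers and the channel Vdac1 included, 13 fell (43.3%, against 8.49% of all genes and 32.6% of the brightest 10%) and 1 rose (median -0.20), and 26 of the 30 lie in the brightest 10% of genes. After quantile normalization 8 fell and 2 rose, with the spike-in covariate 6 fell and none rose, with the Gapdh covariate 9 fell and 1 rose, and with the spike-in covariate over cortex arrays alone 1 fell. Cox8a, a small subunit of cytochrome c oxidase, lay at 15.66, 15.78 and 16.15 at 4 h and at 15.13, 15.29 and 15.47 at 24 h. The times were separate on every array (-0.52 ± 0.0658, adjusted p = 1.45e-07), and 3 of its 4 probe sets fell. Atp5po, a stalk subunit of ATP synthase, fell by 0.53 ± 0.0846 without overlap, and Ndufv2, a complex I subunit, by 0.57 ± 0.112 with overlap at one edge. Cox6a1 (-0.51), Cox5b (-0.42), Cyc1 (-0.44) and Atp5f1d (-0.41) fell as well. Sdha, a complex II subunit that is also an enzyme of the citric acid cycle, rose by 0.27, and Cox5a (0.18) and Atp5f1a (-0.03) did not pass.

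Promoters of these genes, taken from RefSeq on GRCr8, were searched on both strands for CCGGAAG, a core bound by ETS factors, from 250 bases before to 50 after the transcription start. It was found in 9 of 36 matched genes of the ribosomal list (25%), 8 of 26 of the respiratory list (30.8%), 56 of 299 genes that fell (18.7%), 57 of 456 that rose (12.5%), 448 of 3480 matched genes tested (12.9%) and 9.22% of all 27457 promoters. The 120 bases before the start are shown for the pair of genes in each list that fell most among those with the core in this stretch, with its matches in capitals, CTTCCGG being the core on the other strand. A match is a description of the letters and says nothing of binding in these samples.
Rpl27a, chr1:172974453-172974572, plus strand: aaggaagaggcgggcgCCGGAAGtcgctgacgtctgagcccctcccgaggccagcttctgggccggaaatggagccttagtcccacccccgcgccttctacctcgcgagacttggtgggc
Rpl41, chr7:1563498-1563617, minus strand: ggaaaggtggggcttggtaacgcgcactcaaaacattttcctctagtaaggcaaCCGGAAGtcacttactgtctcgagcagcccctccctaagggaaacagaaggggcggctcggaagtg
Cox5b, chr9:46417717-46417836, plus strand: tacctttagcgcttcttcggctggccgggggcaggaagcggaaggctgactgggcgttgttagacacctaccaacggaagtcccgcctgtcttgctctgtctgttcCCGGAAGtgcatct
Cox8a, chr1:213833624-213833743, minus strand: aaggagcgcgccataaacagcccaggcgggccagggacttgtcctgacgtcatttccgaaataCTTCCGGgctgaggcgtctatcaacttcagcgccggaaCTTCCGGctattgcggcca
Rpl27a and Rpl41 each fell by 0.31, and Cox5b and the brightest Cox8a probe set by 0.42 and 0.41.

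Proteasome genes held the largest fall of a bright gene. Of 25 genes of the proteasome and of ubiquitin transfer, 8 fell (32%, against 8.49% of all genes) and 3 rose (12%, near the 12.8% of all genes), with a median of -0.0062. Of the 25, 8 lie in the brightest 10% of genes, where 32.6% fell. With the spike-in covariate 6 fell and 1 rose, and with the Gapdh covariate 7 and 1. Psmb4, a subunit of the proteasome core, lay at 14.41, 14.65 and 14.85 at 4 h and at 13.13, 13.21 and 14.13 at 24 h. The ranges did not overlap, and at 24 h the arrays fell into 5 between 13.13 and 13.22 and 3 between 14.02 and 14.13, a fall of 1.11 ± 0.136 (2.15-fold, adjusted p = 1.11e-07); a second of its 3 probe sets fell by 0.49. Psmc3 (-0.63), Psmd4 (-0.51) and Psmb1 (-0.49) fell too, while Psme1, an activator of the proteasome, rose by 0.52 and Ube2d2, a ubiquitin-conjugating enzyme, by 0.73 ± 0.122. Of 24 glycolysis genes 5 rose and 5 fell on the deposited scale (20.8% each, against 12.8% and 8.49% of all genes). Of the 24, 12 lie in the brightest 10% of genes, where 10.7% rose and 32.6% fell. After median scaling 2 rose and 9 fell, with the spike-in covariate 2 and 4, and with the Gapdh covariate 1 and 1. Ldhb fell by 0.60 ± 0.119, Pkm by 0.31 and Aldoc by 0.29, whereas the neuronal glucose transporter gene Slc2a3 (0.53), the lactate transporter gene Slc16a1 (0.51) and Pfkfb3 (0.51) rose. Pgk1 rose by 0.43 on its brightest probe set and fell by 0.48 on another.

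**Figure D3:**
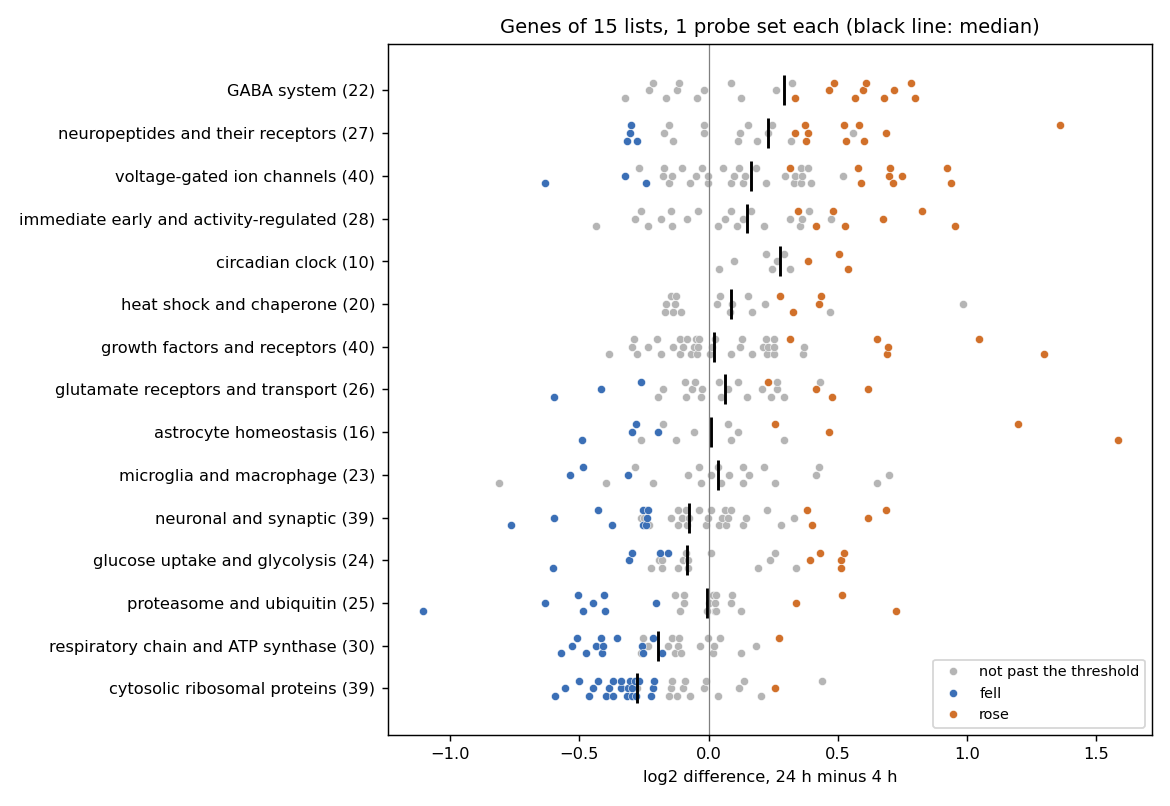
Log2 difference, 24 h minus 4 h, of the genes of 15 lists in contralateral cortex, 1 probe set per gene, with the number of genes measured in parentheses. Orange points rose, blue points fell, grey points did not pass an adjusted p of 0.05, and black lines mark medians; the GABA list has 10 orange and no blue points (median 0.29), and the ribosomal list 1 orange and 23 blue (median -0.28).

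Immediate early genes, which neurons induce within minutes of strong activity, gave rises and few falls. Of 28 such genes 7 rose (25%, against 12.8% of all genes) and none fell by their brightest probe set (median 0.15). Their median signal was 11.14, in the third quartile of probe sets (10 to 11.6), where 398 of 1875 rose. After median scaling 2 rose and 2 fell, with the spike-in covariate 2 rose, with the Gapdh covariate 3 rose, and with the spike-in covariate over cortex arrays alone none passed. Nr4a3, an orphan nuclear receptor, lay at 9.21, 10.01 and 11.06 at 4 h and at 10.82, 11.03 and 11.24 at 24 h. The highest 4 h array reached into the 24 h range, and the rise was 0.96 ± 0.195 (adjusted p = 0.000278), but 0.53 with the spike-in covariate (adjusted p = 0.377). The zinc finger gene Egr2 rose by 0.83 ± 0.288 (adjusted p = 0.0326) and Egr1 by 0.48; Egr2 did not pass after quantile normalization (adjusted p = 0.0782) or median scaling (adjusted p = 0.075) and was 0.19 with the spike-in covariate (adjusted p = 0.871). Fos (0.39), Arc (0.06), Junb (0.21), Nr4a1 (0.32) and Bdnf (-0.04) did not pass on the brightest probe set, and a dimmer probe set of Jun fell by 0.37 and one of Gadd45a by 0.69. Of 10 circadian clock genes, which oscillate over the day in cortex, Per2 (0.38), Nr1d2 (0.51) and Bhlhe41 (0.54) rose (30%, against 12.8% of all genes) and none fell. The median signal of these 10 was 11.19, also in the third quartile. After quantile normalization 2 rose, after median scaling 2, with the spike-in covariate 2 and with the Gapdh covariate 1. Per2 did not pass in any of these settings (adjusted p = 0.182, 0.236, 0.101 and 0.31 in that order). Bhlhe41 went from 11.05, 11.47 and 11.93 to 11.68, 11.95 and 12.27 with overlapping ranges (0.54 ± 0.121, adjusted p = 0.000826). The clock time of sampling is not in the labels.

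Among 12 corticosteroid-responsive genes 2 rose and 1 fell (16.7% and 8.33%, near the 12.8% and 8.49% of all genes), 1 rose and 3 fell after median scaling, 1 rose and 2 fell after quantile normalization, and none passed with either covariate. Crh, corticotropin-releasing hormone (0.53 ± 0.186, and 0.21 with the spike-in covariate, adjusted p = 0.757), and the mineralocorticoid receptor gene Nr3c2 (0.51) rose, and Glul, which glucocorticoids induce in glia, fell by 0.28. Dimmer probe sets fell for Errfi1, a feedback inhibitor of the EGF receptor (-1.05 ± 0.35, adjusted p = 0.0247), and for Nfkbia, the inhibitor of NF-kappaB (-0.64 ± 0.218, adjusted p = 0.0277); Nfkbia reversed to 0.33 with the spike-in covariate. Sgk1 (-0.19) did not pass.

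Chaperones fold proteins in the cytosol, mitochondria and endoplasmic reticulum. Of 20 heat shock and chaperone genes 4 rose (20%, against 12.8% of all genes) and none fell by the brightest probe set. By at least 1 probe set 10 of the 20 rose, against 702 of all 4242 genes. That count favours genes with several probe sets, which were 17 of the 20 and 1346 of all genes. After median scaling 1 rose and 3 fell, with the spike-in covariate 5 rose, and with the Gapdh covariate none passed. Hspa5, the chaperone BiP that marks the unfolded protein response, had a probe set at 9.29, 9.71 and 10.57 at 4 h and at 10.79, 11.48 and 11.66 at 24 h. That probe set separated the times (1.53 ± 0.198, 2.88-fold, adjusted p = 2.07e-07), and the brighter one rose by 0.33. Hsp90b1, the chaperone of the same compartment, rose on 2 of 3 probe sets, by 0.67 ± 0.128 without overlap on one of them, from a range of 11.76 to 12.20 to one of 12.43 to 12.76, and differed by 0.22 on the brightest. With the Gapdh covariate this Hspa5 probe set stayed past the threshold (adjusted p = 0.00135) and that of Hsp90b1 did not (0.29, adjusted p = 0.18). Of the cytosolic chaperones Hsph1 rose by 1.08 ± 0.208 on one of 2 probe sets (0.53 with the Gapdh covariate, adjusted p = 0.149), and Hsp90ab1 (-0.11), Hspd1 (-0.13) and Hspa1a (0.98) did not pass on the brightest. The endoplasmic reticulum stress element, CCAAT and CCACG with 9 bases of any kind between them, lay on either strand in the promoters of 4 of 16 matched genes of the list (25%), against 6 of 3480 matched genes tested (0.172%) and 21 of all promoters (0.0765%). Among genes that rose it lay in 1 of 456 (0.219%), near the share of all genes tested, and among those that fell in none of 299. A match again says nothing of binding in these samples. The promoters of Hspa5 and Hsp90b1, again 120 bases before the start on GRCr8, are shown with the element in capitals, since both carry it and both had probe sets that separated the times.
Hspa5, chr3:38452896-38453015, plus strand: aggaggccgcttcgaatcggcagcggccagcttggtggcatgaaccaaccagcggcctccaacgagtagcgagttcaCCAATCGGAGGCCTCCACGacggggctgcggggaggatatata
Hsp90b1, chr7:23012294-23012413, minus strand: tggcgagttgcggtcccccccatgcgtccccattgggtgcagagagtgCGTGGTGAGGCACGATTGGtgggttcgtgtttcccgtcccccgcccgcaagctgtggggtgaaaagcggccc
The element in Hspa5 reads along the gene and the one in Hsp90b1 on the opposite strand.

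Astrocyte genes moved both ways. Astrocytes buffer potassium, water and glutamate through channels and transporters at their endfeet and processes. Of 16 homeostatic astrocyte genes 4 rose and 4 fell (25% each, against 12.8% and 8.49% of all genes), 1 and 2 with the spike-in covariate, and 2 and none with the Gapdh covariate. Of the 16, 9 lie in the brightest 10% of genes, where 10.7% rose and 32.6% fell. Kcnj10, the potassium channel Kir4.1, lay at 7.90, 9.56 and 10.78 at 4 h and at 10.94, 11.11 and 11.53 at 24 h. The 4 h arrays were spread over more than the difference between groups, yet none reached the 24 h range (1.58 ± 0.274, 3.0-fold, adjusted p = 2.94e-05), and both probe sets rose. Aqp4, the water channel of the endfeet, went from 9.85, 10.73 and 11.54 to 11.21, 12.05 and 12.30, with overlap, a rise of 1.2 ± 0.188 (2.29-fold, adjusted p = 5.55e-06). With the spike-in covariate Aqp4 stayed past the threshold at 1.39 (adjusted p = 0.00522) and Kcnj10 did not (1.43, adjusted p = 0.0541). Slc1a3, a glial glutamate transporter, rose on 2 of 4 probe sets, by 0.74 ± 0.152 on one of them, and differed by -0.17 on the brightest. Mt3 (-0.49), Aldoc (-0.29), Glul (-0.28) and Clu (-0.20), all abundant in astrocytes, fell. Of 19 genes of reactive astrocytes Stat3 alone rose (5.26%, against 12.8% of all genes), by 0.81 ± 0.256 (adjusted p = 0.0182). Vim (-0.06), Timp1 (0.23), Cd44 (-0.28) and Lcn2 (-0.42) did not pass, and Gfap was not analysed here. With the spike-in covariate 1 of the 19 rose and none fell, and with the Gapdh covariate none rose and 1 fell. Stat3 passed with the former (1.41, adjusted p = 0.0359) and not with the latter (0.39, adjusted p = 0.507).

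Of 32 cytokine and inflammatory signalling genes 4 rose, 12.5% against 12.8% of all genes, and 1 fell. After median scaling 1 rose and 3 fell, with the spike-in covariate 3 rose and none fell, and with the Gapdh covariate none passed. On the deposited scale Il18 (0.63), Ptgs2 (0.67), Vcam1 (0.46) and Stat3 rose, and Cebpb, an acute-phase transcription factor, fell by 1.04 ± 0.278 (adjusted p = 0.00461) from 8.44, 9.84 and 10.38 to 8.40, 8.76 and 8.90, but was -0.06 with the spike-in covariate. Ccl2 (-0.24), Ccl3 (-0.08), Cxcl10 (-0.05), Il1b (0.27) and Socs3 (-0.15) did not pass. Among 23 genes of microglia and macrophages none rose and 3 fell (13%, against 8.49% of all genes): C1qb (-0.54 ± 0.175), Ctsd (-0.49 ± 0.104) and Apoe (-0.33 ± 0.0656), the last also an astrocyte product. After quantile normalization 1 gene of the list rose and 2 fell, with the spike-in covariate 2 fell, and with the Gapdh covariate 1 fell. C1qb passed with neither the spike-in covariate (-0.20, adjusted p = 0.765) nor the Gapdh covariate (adjusted p = 0.181). On the probe sets given, Ctsd passed with both (adjusted p = 0.000145 and 0.0383) and Apoe with the Gapdh covariate alone (adjusted p = 0.274 and 0.0372). In 20 genes of MHC and the interferon response none passed by the brightest probe set, and 1 dim probe set of Psmb9 rose, at the floor on all 8 arrays at 4 h and above it on 7 at 24 h.

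Growth factor and receptor genes held 6 rises among 40, a share of 15% near the 12.8% of all genes, and no fall. After median scaling 3 rose and 1 fell, with the Gapdh covariate 1 rose, and with the spike-in covariate none passed. Smad7, the inhibitor of TGF-beta signalling, went from 7.54, 8.75 and 9.33 to 9.57, 9.89 and 10.23 without overlap (1.30 ± 0.292, adjusted p = 0.000842), and Fgfr2, a fibroblast growth factor receptor, rose by 1.05 ± 0.255 on the largest of 3 rising probe sets. Follistatin (Fst), which binds activin, fell by 1.15 ± 0.294 on a dim probe set and differed by -0.28 on the brighter. Col1a1 rose by 1.05 ± 0.137 (adjusted p = 2.07e-07) on 1 of 4 probe sets, from a range of 11.23 to 11.84 to one of 12.02 to 12.86, and Col1a2 by 0.39. Of 35 matrix and protease genes 4 rose and 4 fell, 11.4% each, near the 12.8% and 8.49% of all genes. With the spike-in covariate 2 rose and none fell, and with the Gapdh covariate 1 and none.

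The other large falls lay on probe sets of low or middle signal. The 10 largest were taken among probe sets above the floor on all 8 arrays at 4 h. Arl2, a small GTPase of tubulin folding, ran from 8.68, 9.98 and 11.41 to 8.43, 8.90 and 9.11 with overlap (-1.2 ± 0.376, adjusted p = 0.0164). Eef2k, the kinase that inactivates elongation factor 2, went from 9.24, 9.70 and 10.10 to 7.54, 8.61 and 9.13 without overlap (-1.18 ± 0.215, adjusted p = 5.92e-05). Sema6b, an axon guidance ligand (-1.17 ± 0.349), Wfdc1, a secreted protease inhibitor-like protein (-1.05 ± 0.291), the uncharacterised locus LOC102547700 (-0.98 ± 0.186) and the nuclear receptor gene Hnf4a (-0.99 ± 0.274, 3 of 8 arrays above the floor at 24 h) completed these 10 with Errfi1, Cebpb, Psmb4 and Fst. With the spike-in covariate Psmb4 and Fst stayed past the threshold and the other 8 of these 10 did not, from Arl2 (adjusted p = 0.0574) to Cebpb (adjusted p = 0.96). With the Gapdh covariate Psmb4, Eef2k and LOC102547700 stayed past it (adjusted p = 6.3e-05, 0.0138 and 0.0268) and the other 7 did not. Outside these 10, since 7 of 8 arrays at 4 h were above the floor, Gsr, glutathione reductase, fell by 1.49 ± 0.279 on 1 of 3 probe sets, with 4 of 8 arrays above the floor at 24 h, differed by 0.27 on the brightest, and stayed past the threshold with the spike-in covariate (-1.59, adjusted p = 0.0343).

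Markers of the tissue showed what else the samples held. The choroid plexus gene Ttr, transthyretin, ran from 10.21 to 15.60 at 4 h and from 9.28 to 15.56 at 24 h, with 3 arrays at 4 h and 4 at 24 h above 13. It varied between arrays far more than between times (0.11 ± 1.15, adjusted p = 0.962). Of 18 choroid plexus and meningeal genes 3 rose (16.7%, against 12.8% of all genes) and none fell (1 and 1 after median scaling), and of these Col1a1 and Col1a2 are meningeal and Htr2c is plexus-rich. With the spike-in covariate 1 gene of the list rose, and with the Gapdh covariate 1. The blood gene Hbb differed by 0.32 (adjusted p = 0.099). Of 13 oligodendrocyte genes Qdpr rose and 2 fell (7.69% and 15.4%, against 12.8% and 8.49% of all genes). Mbp, myelin basic protein, fell by 0.42 ± 0.0779 without overlap (16.65 to 17.12 against 16.22 to 16.62), and Mobp by 0.33 on its brightest probe set. Counted by the brightest probe set, 1 gene rose and none fell after quantile normalization, with Mbp at an adjusted p of 0.253. With the spike-in covariate 1 of the 13 rose and 1 fell, and with the Gapdh covariate none rose and 1 fell. A dimmer Mobp probe set fell by 0.89 ± 0.187 (adjusted p = 0.000393) and by 0.97 after quantile normalization (adjusted p = 0.000275). This probe set did not pass with the spike-in covariate (-0.54, adjusted p = 0.334) or the Gapdh covariate (-0.70, adjusted p = 0.051). Of 6 cortex-enriched genes 2 rose and 2 fell (33.3% each, against 12.8% and 8.49% of all genes). After median scaling 1 rose and 3 fell, with the spike-in covariate 1 rose and 3 fell, and with the Gapdh covariate none passed. Among the 6 genes Rorb, a layer 4 marker, rose by 0.99 ± 0.285, with 5 of 8 arrays above the floor at 4 h. Rorb stayed past the threshold with the spike-in covariate (adjusted p = 0.0255) but not with the Gapdh covariate (adjusted p = 0.171). Of 9 striatal and thalamic genes only Tac1 rose (11.1%, near the 12.8% of all genes), with Drd1 at 0.38 (adjusted p = 0.241). With the spike-in covariate 1 of the 9 rose, and with the Gapdh covariate none passed.

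The same time difference in ipsilateral cortex, was measured on other arrays. There 1450 probe sets passed (19.3%), of which 856 were higher and 594 lower, and 933 passed on both sides, every one in the same direction: 57.9% of the contralateral calls and 64.3% of the ipsilateral. Of the 1612 contralateral calls 97% had the same sign ipsilaterally, against 75.2% of all probe sets tested, and over probe sets the 2 differences had Pearson r = 0.666 and Spearman rho = 0.655. These are given as a description because probe sets are not independent and both sides share the spike-in difference and the fall of the Gapdh 3′ minus 5′ difference. Dlg2 (1.77), Itpr1 (1.88), Gabra4 (1.46), Aqp4 (1.5), Camk2n1 (-0.98) and Psmb4 (-1.06) rose or fell ipsilaterally too. A test of whether the time difference differed between sides found none of 7503 probe sets past the threshold in limma (smallest adjusted p = 0.279, with 421 at an unadjusted p under 0.05). The smallest p in that test belonged to Akt1, a kinase of growth signalling, which differed by -0.22 ± 0.0814 contralaterally and rose by 0.31 ± 0.0843 ipsilaterally, a difference of -0.53 ± 0.117 (unadjusted p = 4.65e-05). Next came Gyg1 (-0.66 ± 0.159), the primer of glycogen, whose other 2 probe sets rose contralaterally, Sv2a (-0.54 ± 0.132), Cngb1 (1.45 ± 0.354) and the proliferation gene Top2a (-1.08 ± 0.267), which rose by 0.98 ipsilaterally and differed by -0.10 contralaterally. None of them passed after adjustment.

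**Figure D4:**
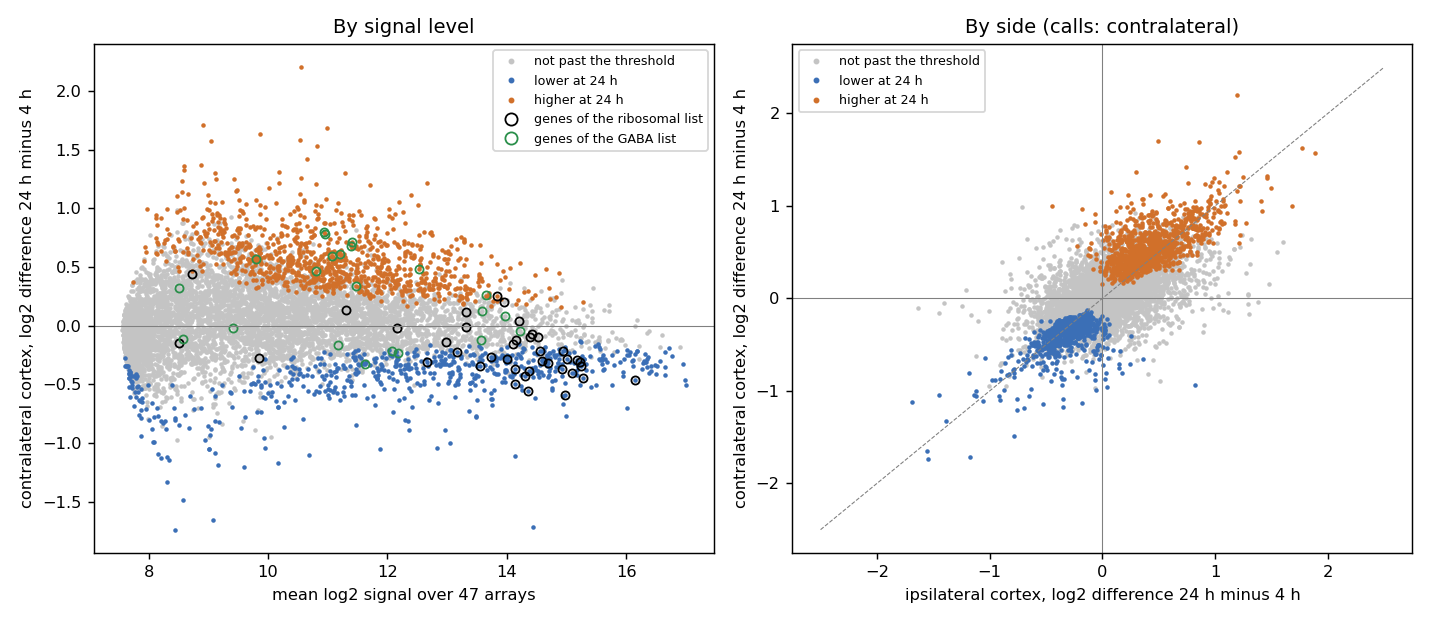
Each point is 1 of the 7503 probe sets, with its log2 difference in contralateral cortex, 24 h minus 4 h, against its mean log2 signal over 47 arrays (left) and against the same difference in ipsilateral cortex (right). Orange points were higher and blue points lower at 24 h in contralateral cortex, and rings mark the genes of the GABA and ribosomal lists on the left; among the brightest 25% more fell (402) than rose (342), and on the right the 933 probe sets called on both sides share their direction (dashed line: equal differences).

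Where a gene had several probe sets they often gave different calls. Of 1346 genes with at least 2 tested probe sets, 585 had at least 1 called, and in 420 of these exactly 1. All probe sets were called in 1 direction for 83 genes, and 25 genes had probe sets called in both directions, among them Pgk1, Slc1a1, Rps15, Rpl13a and the tubulin gene Tubb5, which rose by 0.74 on one and fell by 0.25 on the other.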

How the data were processed

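The deposited values, an intensity per probe set on a linear scale, came from 1 table of all 47 arrays. How the authors summarised and scaled the arrays is not given in the sources used; the trimmed mean of the deposited intensity (2% cut at each end) is nearly equal on all arrays. A floor was set at a signal of 185.8, percentile 25 of the whole table, log2 was taken, and probe sets above this floor on at least 7 arrays were kept, without controls: 7503 of 8740, of which 6122 name 1 gene in GEO's platform annotation (6104 matched to RefSeq by gene ID), 267 several and 1114 none. A floored fold change understates the change.

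A mean for each of the 6 groups was fitted over all arrays with limma 3.58.1 (lmFit, eBayes with intensity trend; R 4.3.3), with Benjamini-Hochberg adjustment over all probe sets; controls were compared by exact permutation tests. The fit was tested on simulated data. Genes named are the 10 largest rises and falls above the floor on all arrays of the brighter group, up to 3 called members of each of 31 lists by any probe set, 5 of the test between sides, and further members to account for a list. Lists count each gene once, by its brightest probe set over all arrays. Members, lists and tests were chosen with earlier results of these data known. Alternatives changed scaling, floor, filter, fit, covariates and arrays. Probe and protein sequences were not used here. An intensity near the floor or near the top of the scale limits precision, as does the number of arrays.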

Additional observations from a re-analysis of the deposited data

Results flagged for a closer look

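In 12 of 218 groups of 8 arrays (5.5%; chance gives about 1 in 20) the highest or lowest array stood apart, its gap to the nearest other array being more than 0.526 of the whole range. At 24 h the lowest array stood apart for Abat (10.68 against 11.13 for the next, ratio 0.625), Gad2 (10.75 against 11.21, 0.582), Htr2c (8.03 against 8.73, 0.555), Maea (10.56 against 10.93, 0.561), Slc1a3 (11.53, ratio 0.56) and Tfrc (10.78 against 11.14, 0.537), and the highest for Gsr (9.06 against 7.99, 0.704). At 4 h the lowest array stood apart for Bcl2l11 (8.12 against 9.46, 0.532), Mvk (9.82 against 10.39, 0.838), Pfkm (10.62 against 11.06, 0.53) and Wfdc1 (8.18 against 9.43, 0.549), and the highest for Pomc (8.56 against 7.94, 0.611). The arrays concerned were spread over both groups: numbers 14 and 46 were concerned in 2 groups each and 8 other arrays in 1 each.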

How the results depend on the processing

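The contralateral count (1612) was weaker with the spike-in covariate (730), with the Gapdh 3′ minus 5′ covariate (601), when a change of more than 1.2-fold was required (197) and, in an alternative chosen after seeing the data, with the spike-in covariate over cortex arrays alone (157). The ipsilateral count (1450) was 576, 737, 155 and 87 under the same settings. Other scalings, floors, filters and fits gave 1353 to 1903, and leaving out each contralateral array in turn 1415 to 1640 (ipsilateral 1434 to 1483). The test between sides gave 1 probe set with the floor at the 10th percentile and 0 otherwise. Without array 14 the median signal difference was 73.2 and passed its test. Reversed were Nfkbia (0.332 with the spike-in covariate), and over cortex arrays alone Bgn (-0.104), Nfkbia (0.197) and Cebpb (0.0538). The cause was not tested. Of 92 named probe sets past the threshold 76 kept their call under quantile normalization, 79 under median scaling, 46 with the spike-in covariate, 42 with the Gapdh covariate, 36 with a change over 1.2-fold and 14 with the spike-in covariate over cortex arrays alone (3 reversed); 73 kept it under every omission of 1 array. No paired analysis was possible because each sample number occurs once in the labels.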
